A study of Mus musculus with 6 samples.

Results

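A set of 7 genes of lipid handling and adipocyte maturation was followed in cultured mouse cells that had been transfected with siRNA against Lhx8, a LIM homeodomain transcription factor. They were Lpl, Scd1, Medag, Aoc3, Abcg1, Abca9 and Acss1, chosen by gene symbol, and they make up 7 of the 817 genes in the deposited tables. A table of 232 genes with estimated read counts, called the count list here, holds Aoc3, Abcg1, Abca9 and Acss1. A further table of 602 genes, called the second list, holds Lpl, Scd1, Medag and again Abca9, and 17 genes are in both lists. The group is wider than enzymes, since Abcg1 and Abca9 are membrane transporters and Medag is an adipogenic factor.

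RNA was sequenced from 6 libraries, 3 transfected with Lhx8 siRNA and labelled as LHX8 deficient, and 3 given the transfection reagent Turbofectamine alone, labelled vehicle and wild-type. The labels call the cells preadipocytes of the 3T3-L1 line, a mouse fibroblast-derived line that can be turned into fat cells, with the number in the line's name changing from library to library, while the study's methods speak of cultured mouse adipocytes. No library received a non-silencing siRNA, so the loss of Lhx8 cannot be told apart from the effect of taking up any siRNA. Lhx8 is in neither list, and its knockdown could not be checked. The labels do not say whether replicates were separate cultures, so the p-values reflect library-to-library spread that may be purely technical.

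Fat cells take up fatty acids that lipoprotein lipase frees from circulating triglyceride, and they also make fatty acids from acetyl-CoA, desaturate them and store them as droplets. As a preadipocyte matures, genes for these steps are switched on by a cascade in which C/EBP factors and PPARgamma are central, and Lpl is among the early ones. Cholesterol leaves the cell through ATP-binding cassette transporters, whose genes are often under the control of liver X receptors.

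Promoter sequences are shown for the 3 of the 7 genes that have an entry in the RefSeq promoter table for GRCm38.p6, because Lhx8 belongs to a class of factors that bind DNA at TAAT cores. Each runs 5′ to 3′ from 250 bases before the transcription start to 50 bases after it. Capitals mark the homeodomain core TAAT read on either strand, or a GC box, GGGGCGGGG, read on either strand. Medag, shown by the first of its 2 entries, lies on the plus strand at chr5:149411499-149411798, Abca9 on the minus strand at chr11:110168104-110168403, and Acss1 on the minus strand at chr2:150668191-150668490.
Medag: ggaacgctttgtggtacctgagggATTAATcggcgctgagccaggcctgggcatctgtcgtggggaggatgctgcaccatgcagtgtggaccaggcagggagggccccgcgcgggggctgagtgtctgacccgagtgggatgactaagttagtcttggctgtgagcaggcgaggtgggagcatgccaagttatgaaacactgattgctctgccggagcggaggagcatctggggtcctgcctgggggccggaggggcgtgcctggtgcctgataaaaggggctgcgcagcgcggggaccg
Abca9: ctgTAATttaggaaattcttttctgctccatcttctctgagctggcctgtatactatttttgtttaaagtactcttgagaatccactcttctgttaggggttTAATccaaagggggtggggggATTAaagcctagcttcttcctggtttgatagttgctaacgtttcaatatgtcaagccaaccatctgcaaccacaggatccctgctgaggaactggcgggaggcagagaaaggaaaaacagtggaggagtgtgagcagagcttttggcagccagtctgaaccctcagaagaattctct
Acss1: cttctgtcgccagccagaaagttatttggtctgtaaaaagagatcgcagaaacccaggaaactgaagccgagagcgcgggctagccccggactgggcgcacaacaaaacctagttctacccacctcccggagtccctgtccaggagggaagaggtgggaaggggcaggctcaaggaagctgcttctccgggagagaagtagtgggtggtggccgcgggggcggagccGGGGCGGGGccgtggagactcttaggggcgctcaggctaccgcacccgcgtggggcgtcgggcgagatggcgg
The first Medag promoter holds 2 overlapping TAAT matches on opposite strands, beginning at -226 and -224 from the start. The Abca9 promoter holds 3 matches, at -247, -148 and -127, and the Acss1 promoter holds none. A TAAT core is present in 58.0% of all 32851 promoters of this length in the table, so having one is common. The GC box of Acss1 begins at -23, and 11.4% of all promoters hold one. GC content was 64.3% for Medag and for Acss1 and 45.3% for Abca9, against a median of 52.7% over all promoters. The second Medag entry, not printed here, holds no TAAT core and an E-box, CACGTG, at -57. Neither strand of the 3 printed windows held the TATA box letters TATAAA, which 13.6% of all promoters hold. The same was true of the CCAAT box letters CCAAT, held by 37.4%, of the LIM homeodomain letters TAATTA, held by 5.29%, of the E-box CACGTG, held by 7.15%, and of the C/EBP palindrome TTGCGCAA, held by 0.183%.

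The authors had selected both lists because siRNA and vehicle differed, so the direction of a gene in them is not independent evidence. Total counts over the count list, which are not library sizes, were 24314, 25922 and 24849 in siRNA 1 to 3, 28919 and 24569 in vehicle 1 and 2, and 130467 in vehicle 3. Vehicle 3 therefore stands apart in the count list, where it is the highest library for 201 of 232 genes (86.6%). Within the second list it is the highest for 78 of the 273 genes with values in all 6 libraries (28.6%). Genes can have entered the count list through vehicle 3 alone. Its share there thus describes the selected list and not the library as a whole. Results are given with and without vehicle 3.

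In the second list, Medag, Lpl and Scd1 were all lower with Lhx8 siRNA, at 65.9%, 81.6% and 91.2% of the vehicle mean. For each of them the 3 siRNA libraries lay below the 3 vehicle libraries, as for 146 of the 273 genes with values in all libraries (53.5%). All 3 passed the test, but so did 488 of the 496 genes tested in this selected list. Called lower were 242 of the 496 (48.8%), out of 243 that were lower. The count of members is thus no result by itself. Without vehicle 3, Medag and Lpl were still called, as were 398 of 409 genes, with 200 of the 409 called lower (48.9%). No source used here gives the scale of the second list, and its values are compared between libraries for 1 gene at a time. In bulk RNA, fewer cells of a type and less RNA per cell cannot be told apart.

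Medag, the mesenteric oestrogen-dependent adipogenesis gene, encodes a factor that promotes the differentiation of mouse preadipocytes. Its value was 21.74, 21.35 and 18.32 in siRNA 1 to 3, and 31.68, 31.78 and 29.67 in vehicle 1 to 3. The groups were well apart, the lowest vehicle library being vehicle 3. The mean was 20.5 ± 1.87 (SD, n = 3) with siRNA and 31.0 ± 1.19 with vehicle. On the scale of log2 of the value plus 0.1, the difference was -0.60 ± 0.08 (SE), with a 95% confidence interval from -0.76 to -0.44 and an adjusted p of 2.53e-06 by limma. An exact permutation test gave p = 0.1, two-sided, which is the smallest that 3 against 3 libraries allow. Without vehicle 3 the mean of the siRNA libraries was 64.5% of vehicle and the difference was -0.63. Medag was the 18th of 243 lower genes by size of difference, where the median of the lower genes was -0.27.

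Lpl encodes lipoprotein lipase, which is made by the fat cell and works at the wall of capillaries. It was listed at 278.66, 282.91 and 298.69 in the siRNA libraries and at 341.67, 335.47 and 377.15 in the vehicle libraries. The siRNA libraries were the lower 3 and vehicle 3 was the highest. Means were 287 ± 10.6 with siRNA and 351 ± 22.5 with vehicle (SD, n = 3). The log2 difference was -0.29 ± 0.05 (SE), with an interval from -0.40 to -0.19 and an adjusted p of 5.77e-05 by limma, and the exact permutation p was 0.1. Leaving out vehicle 3 gave -0.24 with an adjusted p of 3.05e-04 by limma. Its place was 108th of 243 lower genes, near the middle of them.

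Scd1 encodes stearoyl-CoA desaturase, which puts a double bond into saturated fatty acids. Its values were 143.82, 144.86 and 152.76 in the siRNA libraries and 156.15, 156.92 and 171.09 in the vehicle libraries. The gap between the groups was narrow, siRNA 3 lying just under vehicle 1 and vehicle 3 lying above all others. The group means were 147 ± 4.89 and 161 ± 8.41 (SD, n = 3), and the log2 difference was -0.13 ± 0.05 (SE) with an interval from -0.24 to -0.03. The adjusted p was 0.0198 by limma, and the exact permutation p was 0.1. The call was lost without vehicle 3, where the difference was -0.090 with an interval from -0.21 to 0.03 and an adjusted p of 0.125 by limma, and without siRNA 1, where it was -0.12 with an adjusted p of 0.0559. Scd1 was the 238th of 243 lower genes by size. The second list has few genes near 0, with 2 of 496 within 0.1 of it on the log2 scale, so Scd1 lies at the edge of the values in the list.

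**Figure D1:**
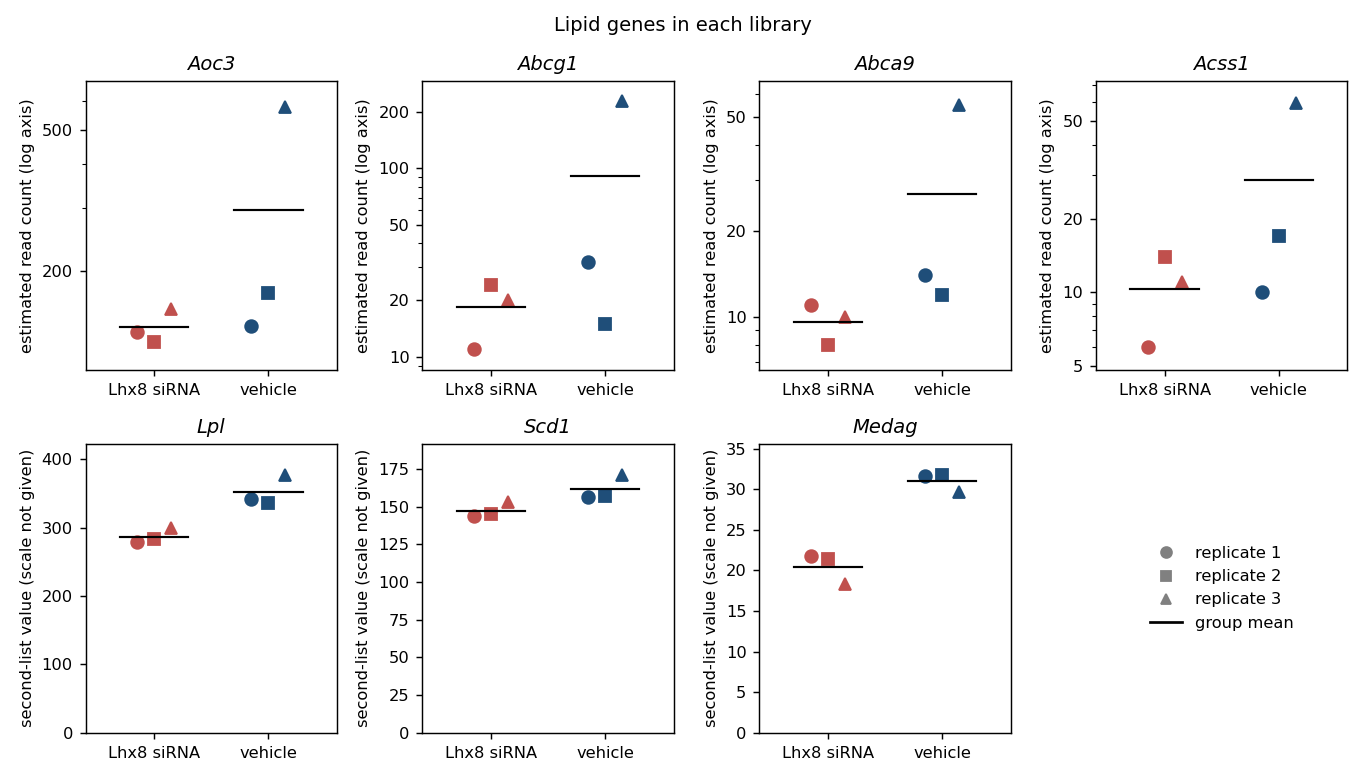
Each point is 1 library, red for Lhx8 siRNA and blue for vehicle, with the replicate number as its shape and the group mean as a black line. The upper row plots estimated read counts on log axes, where vehicle 3 lies above every other library for all 4 genes, and the lower row plots second-list values on axes from 0, where the siRNA libraries of Lpl, Scd1 and Medag all lie below the vehicle libraries.

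Ratios between the 3 genes within a library do not depend on a scale common to that library. Lpl over Scd1 was 1.94, 1.95 and 1.96 in the siRNA libraries and 2.19, 2.14 and 2.20 in the vehicle libraries. Scd1 over Medag was 6.62, 6.79 and 8.34 with siRNA and 4.93, 4.94 and 5.77 with vehicle. Lpl over Medag was 12.8, 13.3 and 16.3 in the siRNA libraries, above the 10.8, 10.6 and 12.7 of the vehicle libraries. The groups did not overlap for any of these 3 ratios, and the log2 differences of siRNA minus vehicle were -0.16, 0.47 and 0.31, in the order given. How often other gene pairs of this selected list separate was not counted, so the separation is not read as particular to these genes. Each of these 3 ratios had an exact permutation p of 0.1. Adjusted over the 9 ratios compared in both lists, it was 0.3 (exact permutation test, Benjamini-Hochberg). A two-sided p of 0.1 is the smallest that 3 against 3 libraries allow, so no ratio could have passed the threshold. The test therefore cannot decide whether these ratios differ between the groups.

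**Figure D2:**
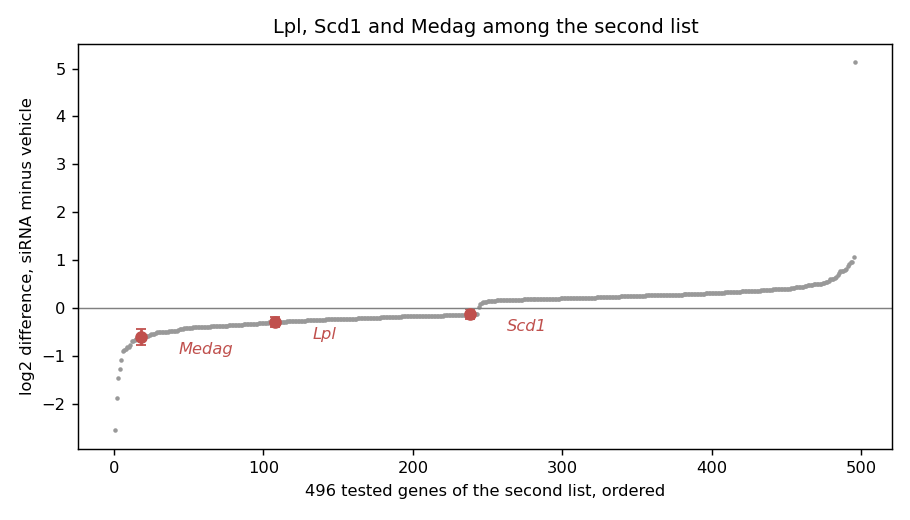
The log2 difference of siRNA minus vehicle is plotted for the 496 tested genes of the second list in order of size, with Medag, Lpl and Scd1 in red with their 95% confidence intervals. Medag is the 18th, Lpl the 108th and Scd1 the 238th gene from the left, and hardly any gene lies near 0.

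The genes whose pattern over libraries was most like each member were found by the root mean square difference of centred log2 values, and nothing about function follows from the likeness. For Lpl they were B4galt5 (0.0329, over 4 libraries), Dtx3 (0.0360, over 5) and Gpnmb (0.0363, over 6), against a median of 0.233 over 495 genes. Gpnmb read 719, 696 and 766 with siRNA and 826, 845 and 919 with vehicle. For Scd1 they were Pnp (0.0275, over 4), Plbd2 (0.0283, over 6) and Tap2 (0.0303, over 4), with a median of 0.173. For Medag they were Sod3 (0.0499), Dpep1 (0.0581) and Prl2c3 (0.0904), each over 4 libraries, with a median of 0.369. Where fewer libraries had values, the measure rests on fewer points.

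In the count list, Aoc3, Abcg1, Abca9 and Acss1 all had lower mean counts with Lhx8 siRNA, at 46.9%, 20.1%, 35.8% and 36.0% of the vehicle mean. None of the 4 passed the test. No gene of the list did, with 0 of 232 called lower (0.0%) by edgeR's quasi-likelihood test with Benjamini-Hochberg adjustment, 27 at an unadjusted p under 0.05, and 1 call, of a higher gene, by DESeq2 with its own size factors. Without vehicle 1 or vehicle 2, 6 and 5 genes were called by edgeR, none of them 1 of these 4. Without vehicle 3 the 4 siRNA means were 88.8%, 78.0%, 74.4% and 76.5% of vehicle. Vehicle 3 alone held between 64.8% and 82.8% of the summed vehicle counts of these genes.

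Aoc3 (ENSMUSG00000019326) encodes a copper amine oxidase of the cell surface that is abundant on fat cells. Its counts were 135, 126 and 156 in siRNA 1 to 3, and 140, 173 and 577 in vehicle 1 to 3. Vehicle 3 was 3.69 times the mean of vehicle 1 and 2, while vehicle 1 lay within the range of the siRNA libraries. The mean was 139 ± 15.4 with siRNA and 297 ± 243 with vehicle (SD, n = 3), with an exact permutation p of 0.2. The log2 fold was -1.09 ± 1.01 (SE), with an interval from -3.14 to 0.95 and an adjusted p of 0.330 by edgeR. Without vehicle 3 it was -0.17, with an interval from -0.64 to 0.30 and an adjusted p of 0.753 by edgeR. Scaling by TMM, a trimmed mean of log ratios, turned the direction, with a log2 fold of 0.10 and an adjusted p of 0.933 by edgeR. That scaling places Aoc3 against the selected list only, so the turn does not settle its direction. As a share of the listed counts, vehicle 3 had the lowest Aoc3 of the 6 libraries, 442 in 100000 against 484 to 704 in the others.

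Abcg1 (ENSMUSG00000024030) encodes a transporter that hands cholesterol to high-density lipoprotein. It had 11, 24 and 20 counts with siRNA but 32, 15 and 227 with vehicle. The groups overlapped through vehicle 2, and vehicle 3 was 9.66 times the mean of vehicle 1 and 2, the widest such gap of the 4 genes. Mean counts were 18.3 ± 6.66 and 91.3 ± 118 (SD, n = 3), and the exact permutation p was 0.3. The log2 fold of -2.31 ± 1.17 (SE) had an interval from -4.66 to 0.05, and the adjusted p was 0.317 by edgeR. It was -0.57 with TMM scaling, and -0.36 without vehicle 3 with an interval from -1.50 to 0.79. Per 100000 listed counts, vehicle 3 was the highest library at 174, with a 95% Wilson interval from 153 to 198, and vehicle 1 followed at 111. Such intervals cover counting error only.

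Abca9 (ENSMUSG00000041797) belongs to the A subfamily of ATP-binding cassette transporters. The siRNA libraries had 11, 8 and 10 counts and the vehicle libraries 14, 12 and 55. It was the only member of the 4 whose groups did not overlap, with or without vehicle 3, as were 29 of 232 genes lower with siRNA in the list (12.5%). The smallest gap was 1 count, between siRNA 1 and vehicle 2, and exact Poisson intervals around these low counts are wide, from 3.45 to 15.8 for the 8 counts of siRNA 2 and from 7.65 to 23.5 for the 14 counts of vehicle 1. The mean was 9.67 ± 1.53 with siRNA and 27.0 ± 24.3 with vehicle (SD, n = 3), with an exact permutation p of 0.1. Its log2 fold was -1.47 ± 1.09 (SE), from -3.66 to 0.72, with an adjusted p of 0.317 by edgeR, and without vehicle 3 it was -0.42, from -1.23 to 0.38. As shares of the listed counts, by which 12 of 232 genes (5.17%) were lower without overlap, the groups of Abca9 overlapped, at 45.2, 30.9 and 40.2 in 100000 with siRNA and 48.4, 48.8 and 42.2 with vehicle. In the second list Abca9 had usable values in vehicle 1 and 2 alone, 4.41 and 5.76, and could not be tested there.

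Acss1 (ENSMUSG00000027452) encodes the mitochondrial acetyl-CoA synthetase, which turns acetate into acetyl-CoA. It was counted 6, 14 and 11 times with siRNA and 10, 17 and 59 times with vehicle. Vehicle 1 lay inside the siRNA range, and vehicle 3 was 4.37 times the mean of the other vehicle libraries. Mean counts were 10.3 ± 4.04 and 28.7 ± 26.5 (SD, n = 3), with an exact permutation p of 0.3. The log2 fold was -1.46 ± 1.08 (SE), from -3.65 to 0.73, with an adjusted p of 0.317 by edgeR. Without vehicle 3 it was -0.38, from -1.51 to 0.75. Without vehicle 3 the intervals of all 4 genes included 0.

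**Figure D3:**
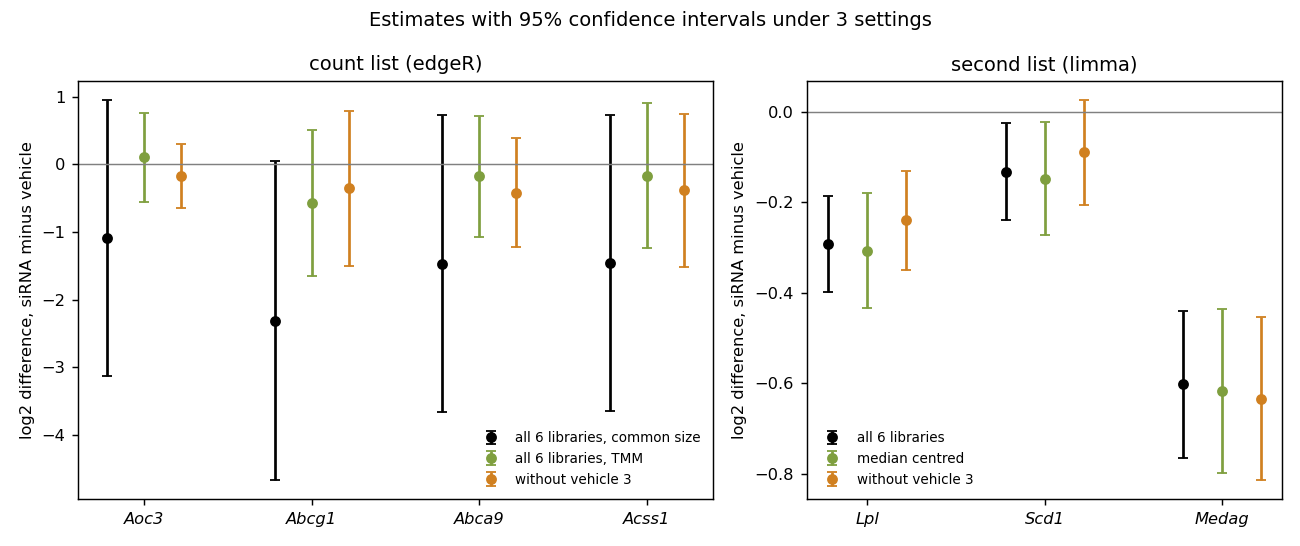
Points are log2 differences of siRNA minus vehicle and bars are 95% confidence intervals, for the count list by edgeR on the left and for the second list by limma on the right. Black is the fit over all 6 libraries, green the fit with another scaling (TMM or median centring) and orange the fit without vehicle 3, and every interval on the left crosses 0 while on the right only that of Scd1 without vehicle 3 does.

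The distance of vehicle 3 from the other vehicle libraries was set beside that of the whole count list. The median gene had a log2 distance of 2.50, a 5.66-fold excess in vehicle 3. Aoc3 at 1.88, Abca9 at 2.04 and Acss1 at 2.09 lay below that median, and Abcg1 at 3.24 lay above it. They were at the 26.3, 32.8, 35.3 and 72.4 percentiles of the 232 genes. Since genes can have entered the list through vehicle 3, these distances and percentiles hold within the list only. The siRNA mean was lower by 2-fold or more for 207 of 232 genes (89.2%) over all libraries and for 32 (13.8%) without vehicle 3. Those 207 were all the lower genes of the list, so every lower gene in this selected list differed by at least that much. That all 4 members were among the 207 thus follows from the selection, and none was among the 32. With TMM scaling the median log2 fold of all genes moved from -1.55 to -0.12, and the split from 207 lower and 25 higher to 141 lower and 91 higher. TMM centres the log ratios of the genes it is given, here a selected list, so this move follows largely from the method.

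**Figure D4:**
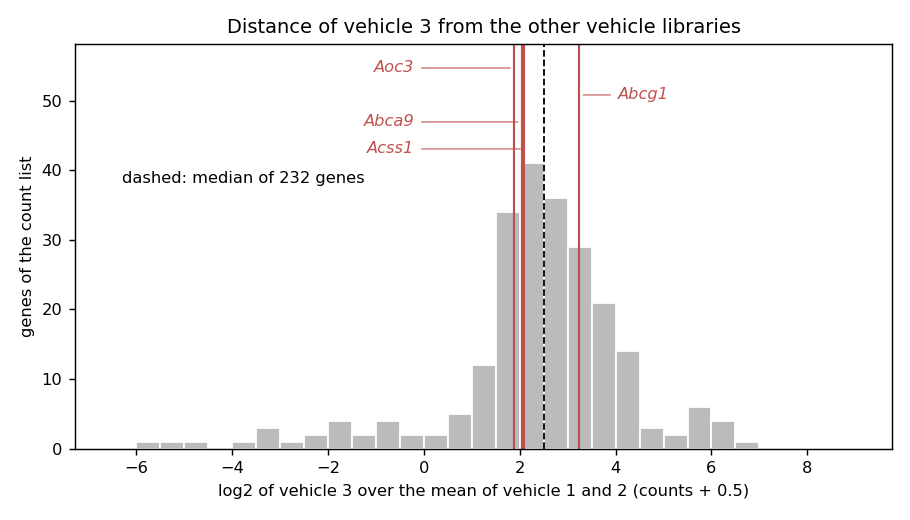
The histogram counts the 232 genes of the count list by the log2 ratio of vehicle 3 to the mean of vehicle 1 and 2, with 0.5 added to each count. Red lines mark Aoc3, Abca9, Acss1 and Abcg1 and the dashed line the median of 2.50, which only Abcg1 exceeds among the 4.

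Markers of other cell types were also in the count list, and most were highest in vehicle 3, as were 86.6% of all its genes. Of the leukocyte markers, 7 of 13 were in the list and 6 of them were highest in vehicle 3, where the summed count of the 7 was 468 against 99 to 135 in the other libraries. Cd207, a lectin of Langerhans cells, was the exception, with 58, 78 and 60 counts in the siRNA libraries and 47, 45 and 1 in the vehicle libraries, so that it was lowest in vehicle 3. Of the endothelial markers 4 of 8 were present and all 4 were highest there, with a sum of 537 against 55 to 96, and Ccm2l was at 0 in every library but vehicle 3. Keratinocyte, epithelial or mesothelial markers gave 7 of 13, all highest in vehicle 3, with a sum of 4322 against 681 to 822. These shares are near that of the whole list, so nothing particular to the markers is read from them. The marker lists were drawn up with earlier results known, so the number of markers present is no result. Common markers such as Ptprc and Csf1r, Pecam1 and Cdh5, and Krt5 and Epcam were in neither list. The presence of other cell types, and the part of these markers in the counts of Aoc3, Abcg1, Abca9 and Acss1, was not tested. No preadipocyte or mature adipocyte marker was in the count list. Of the second list, Pdgfra, Col3a1 and Ly6a, 3 of 14 preadipocyte and fibroblast markers, were called lower with log2 differences of -0.27, -0.21 and -0.39 by limma, alongside Lpl at -0.29, in a list where 48.8% of the tested genes were called lower. Adipoq, which encodes adiponectin, was the only mature adipocyte marker of 11 in either list. Most defining markers of either cell type are thus outside the lists, and the labelled cell type could not be checked further.

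By pattern, Aoc3 was most like Ptgfr, Clmn and Casp12, with root mean square log2 differences of 0.0820, 0.0975 and 0.106 against a median of 0.671 over 231 genes. Ptgfr, a prostaglandin F receptor, had 132, 123 and 155 counts with siRNA and 128, 169 and 639 with vehicle, close to those of Aoc3 in every library. Abca9 was nearest to Sort1, Sla and Dmpk, at 0.113, 0.157 and 0.188, and Acss1 to Lama5, Kank3 and Mrgprf, at 0.216, 0.314 and 0.329. Abcg1 had the most distant neighbours of the 4, with Prss35 at 0.317, Trpv3 at 0.353 and Ranbp3l at 0.354.

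Other genes of the same pathways were taken from fixed lists. Among genes of lipid uptake, 1 of 16 was in each table, Lpl and Sort1. Sort1, the sorting receptor sortilin, had 19, 16 and 16 counts with siRNA and 26, 23 and 89 with vehicle. Its groups did not overlap, as for 29 of 232 genes lower with siRNA in the count list (12.5%). Its log2 fold was -1.43 and, without vehicle 3, -0.52, neither called by edgeR. Among 25 genes of lipid synthesis, Acss1 was in the count list, and Scd1 and Lpin1 were in the second. Lpin1, a phosphatidate phosphatase of triglyceride synthesis, was listed at 17.9 and 15.8 in siRNA 2 and 3 and at 19.6, 20.3 and 21.6 with vehicle. It was called lower at -0.28 (adjusted p = 0.00743 by limma), beside 48.8% of all genes tested in that list.

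Of 20 sterol and lipid transport genes, 5 were in the count list, with 4 lower, 1 higher and none called by edgeR. Their median log2 fold was -1.47, against -1.55 for all genes. Without vehicle 3 the median was 0.17, with 2 lower and 3 higher, against -0.10 for all. With TMM scaling it was -0.18, with 3 lower and 2 higher, against -0.12. Abcg1 and Abca9 were the 2 that were still lower without vehicle 3. Apod, a carrier of small lipids, had 30, 48 and 25 counts with siRNA and 27, 34 and 371 with vehicle, and Apob, the core protein of very low density lipoprotein, had 71, 68 and 95 with siRNA but 31, 64 and 471 with vehicle. The bile acid receptor gene Nr1h4 had 13, 8 and 9 counts with siRNA but 4, 4 and 0 with vehicle, the one gene of this list whose siRNA libraries all lay above the vehicle libraries. Groups did not overlap, in either direction, for 43 of the 232 genes of the count list (18.5%).

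Among second-list genes, 2 of the 3 transport genes could be tested and both were called lower by limma, beside 48.8% of all genes tested. Npc2, which carries cholesterol out of lysosomes, was at 262.00, 273.53 and 269.96 in the siRNA libraries and at 319.44, 325.71 and 321.44 in the vehicle libraries. That is a log2 difference of -0.26 with an adjusted p of 4.30e-05 by limma. Apod was at 4.96 and 2.88 in siRNA 1 and 2 and at 6.63, 6.97 and 7.68 with vehicle, a log2 difference of -0.89 with an adjusted p of 1.80e-04 by limma. For Apod the second list thus gave groups that did not overlap, on 2 siRNA values, while its counts overlapped. In the second list 146 of the 273 genes with values in all libraries (53.5%) were lower without overlap.

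Among 20 genes of lipolysis and the lipid droplet, Sncg and Aspa were in the count list. Sncg, which encodes gamma-synuclein, a droplet-associated protein of fat cells, had a log2 fold of -1.40 there and -0.48 without vehicle 3, and Aspa, aspartoacylase, had -1.68 and 0.10. Neither was called by edgeR. Sncg was called lower at -0.27 in the second list, with an adjusted p of 3.67e-04 by limma, beside 48.8% of all genes tested there. Of 14 adipogenic factors 4 were in the second list and 2 could be tested, Medag, described above, and Cebpb, which was also called lower, beside 48.8% of all genes tested. Klf15 and Stat5a had too few values for a test. Cebpb, an early C/EBP factor of adipocyte differentiation, was at 125.50, 113.34 and 113.71 in the siRNA libraries, under the 154.96, 171.19 and 149.91 of the vehicle libraries, with a log2 difference of -0.43 with an adjusted p of 3.48e-06 by limma. Nr1i2 and Rarb of this list had low counts and were not called by edgeR.

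Of 15 adipocyte secreted or surface proteins, 7 were in the count list, Aoc3 among them. The others were Rarres2, Enpp2, Selenop, Agt, Stra6 and Cmklr1. All 7 were lower over all libraries, as were 207 of 232 genes, with none called by edgeR. Their median log2 fold was -1.09 against -1.55 for all genes, and with TMM scaling it was 0.10, with 3 lower and 4 higher, against -0.12. Without vehicle 3, 4 of 6 were lower and the median was -0.11 against -0.10. Rarres2, which encodes the adipokine chemerin, had 367, 405 and 329 counts in the siRNA libraries and 431, 355 and 1487 in the vehicle libraries, with overlapping groups. Enpp2, the secreted enzyme autotaxin, had 96, 110 and 101 counts against 120, 104 and 430, and it too overlapped. From the second list, Adipoq, Agt and Selenop could be tested and were called lower by limma, with log2 differences of -1.47, -0.55 and -0.51, beside 48.8% of all genes tested that were called lower. Enpp2 had too few values there for a test. Adipoq was listed at 3.47 and 2.83 in siRNA 1 and 3 and at 8.76 and 8.96 in vehicle 1 and 2. Selenop, a selenium carrier, was higher in the count list without vehicle 3, at 0.48 on the log2 scale and not called by edgeR, and lower in the second list.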

How the data were processed

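Poly(A) RNA of 6 libraries was sequenced on a BGISEQ-500. The sources name HISAT, Bowtie2, RSEM and DESeq2; no source used here gives versions, genome build, annotation or use of strand, and reads of antisense partners cannot be separated. Groups and replicate numbers came from the sample titles. The count list holds estimated counts that the authors deposited as read counts, of which 86.8% were exactly whole. The second list was deposited by the authors in the same table under the same heading, but 0.920% of its values were whole, so the deposited values were treated as a score of unknown scale. Of its 3612 cells, 528 were numbers in date format, 526 of them equal to the mean of the rest of their group within 0.01, and 42 were calendar dates. These cells were not used. Deposited fold changes and p-values of the authors were not used either.

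Estimated counts were rounded and tested with edgeR 4.0.16 (R 4.3.3, quasi-likelihood, 1 common library size because the list is short, summed count of at least 10). The second list was tested with limma 3.58.1 with a mean trend, on log2(value + 0.1), for genes with at least 2 values in each group. P-values were adjusted over each list (Benjamini-Hochberg, threshold 0.05). DESeq2 1.42.0, other scalings, pseudocounts, filters, a replicate block and leaving out each library were alternatives. Scripts were tested on simulated data. Shares of listed counts have Wilson and counts exact Poisson 95% intervals.

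The 7 genes, the pathway and marker lists and the alternatives were chosen with earlier results of these data known. Beyond the 7 genes, measured members of the lipid lists were named, with values for at most 3 of each list by mean, and the 3 genes of the same table most like each member. Values of Nr1h4, Cd207, Ccm2l and of Selenop in the count list, and log2 folds of further list members, were added after their values were seen.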

Additional observations from a re-analysis of the deposited data

How the results depend on the processing

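Lpl and Medag kept their direction and their call under all 14 alternatives, with log2 differences from -0.32 to -0.24 and from -0.65 to -0.52. Calls were common in this selected list, where 398 of 409 tested genes were called without vehicle 3 and 370 of 383 without siRNA 1. Keeping a call is thus not particular to these genes. Scd1 ranged from -0.16 to -0.090 when each library was left out and lost its call without siRNA 1 and without vehicle 3. Abcg1, Abca9 and Acss1 kept their direction and were never called, over 13, 12 and 12 alternatives. Of all genes in the count list, 207 of 232 were lower over all libraries, 119 of 201 without vehicle 3 and 141 of 232 with TMM scaling. Keeping the direction is thus not read as particular to these genes. Aoc3 turned to 0.10 with TMM scaling and to 0.088 with DESeq2 and its own size factors, both scalings within the selected list. Leaving out each library, the log2 folds ran from -1.43 to -0.17 for Aoc3, from -2.81 to -0.36 for Abcg1, from -1.82 to -0.42 for Abca9 and from -1.87 to -0.38 for Acss1, the smallest of each without vehicle 3.

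No gene of the count list was called over all libraries, against 1 higher gene with DESeq2 and its own size factors, and 1 lower gene with TMM scaling without vehicle 3, a setting chosen after seeing the data. Leaving out each library gave 0 to 6 calls, 0 to 5 of them lower and 0 to 1 higher, with 6 without vehicle 1 and 5 without vehicle 2. In the second list 488 genes were called, 242 lower and 246 higher. With values required in all 6 libraries, which left 273 genes to test, 271 were called, 149 lower and 122 higher. Leaving out each library gave 370 to 398 calls, 186 to 210 lower and 174 to 198 higher.

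The groups share replicate numbers, and same-numbered libraries deviated together only weakly. The correlations were 0.0618, 0.0514 and 0.123 in the count list and 0.253, 0.123 and 0.0343 in the second. The best-matching vehicle library had the same number for siRNA 2 and 3 in the count list and for siRNA 1 in the second. The numbers were not taken as pairs. With a replicate block the log2 folds were -0.79 for Aoc3, -1.48 for Abcg1, -1.13 for Abca9 and -1.14 for Acss1, with no call, and the differences were -0.29 for Lpl, -0.13 for Scd1 and -0.60 for Medag, all still called. The block left 0 calls in the count list and 445 of 455 genes tested in the second.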

Other observations

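The same gene had very different sizes in the 2 lists. Over 16 genes with usable values in both, the second-list value per estimated count in vehicle 1 and 2 ran from 0.0245 for Dpt to 21.4 for Agt, so the second list is not the count list on another common scale. Abca9 of the lipid genes was at 0.315 in vehicle 1 and 0.480 in vehicle 2. Sncg, the droplet-associated synuclein, had 15 and 13 counts in vehicle 1 and 2 beside second-list values of 126.84 and 137.73. Dpt, which encodes dermatopontin of the extracellular matrix, had 1273 and 1111 counts beside 31.19 and 31.86.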
